A study of Mus musculus with 8 samples.

Results

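Gene expression was compared between the 2 clones of TEC71 cells that carry the same edit, clone 3 (2 arrays) and clone 1 (3 arrays), with all 56605 non-control probes of 1-colour Agilent mouse arrays. The 5 knock-in arrays are those of 8 in all whose titles name a knock-in clone. TEC71 is an immortalized line from the epithelium of the mouse thymic medulla. Both clones were labelled as knock-ins of the T1211A mutation in Gtf2i. The other 3 arrays held RNA of TEC71 cells transfected with a Cas9 nickase and a single guide RNA, which serve below as the common reference level. All groups were grown as monolayers in the same serum-containing medium. Each clone is a single clone of one immortalized line, and the labels do not say whether arrays of a clone came from separate cultures, so p-values measure the spread between arrays, which may be technical.

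Thymic medullary epithelium displays self antigens to developing T cells and is held together by keratin filaments, tight junctions and a basement membrane. Gtf2i encodes TFII-I, a transcription factor with repeated helix-loop-helix-like domains that also takes part in signalling in the cytoplasm, and the gene is recurrently mutated in tumours of thymic epithelium. The comparison of clones that carry the same edit asks which genes and pathways differ between cells of one labelled genotype.

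Levels are given as log2 of the signal minus the 75th percentile of the array, so 0 is the level that 75% of probes do not exceed and a step of 1 is a factor of 2. The fraction of probes well above background ran from 55.3% to 59.3% over the 8 arrays, the 75th percentile of the signal from 268 to 377, and no spot was saturated. The first clone 1 array shared a row of the slide with the controls, and the other 4 knock-in arrays shared the other row. On that first array the brightest spike-in signal was 2797, where the other arrays had 17164 to 30390. Of the 19 medullary markers matched on the array by their own symbol, 12 were well above background on all 5 knock-in arrays, among them the keratins Krt5 and Krt14 and the adhesion molecule Epcam. The medullary regulator Aire was above background on 2 of 3 clone 1 arrays and on 0 of 2 clone 3 arrays. The medullary markers Fezf2, Cd40, H2-Aa, Ccl21a, Spib and Tnfrsf11b were at background on all 8 arrays. Of 14 markers of the thymic cortex 8 were above background on all 5 knock-in arrays, among them Prss16, Ctsl and Foxn1. Of 14 leukocyte markers 7 were above background on all 5 knock-in arrays (among them Cd3e, Itgam, Csf1r and Cd68), with a summed level, as log2 of the summed linear levels, of 3.61 to 4.04 in clone 1 and 3.85 on both clone 3 arrays. Ptprc, the marker common to leukocytes, was at background on all 5. Of 18 fibroblast markers 7 were above background on all 5 (Pdgfra, Col1a2, Twist1, Twist2, Vim, S100a4 and Acta2). Pdgfrb, Dcn, Lum and Thy1 were among those at background.

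Few genes passed the threshold between the clones, and with so few arrays a gene that did not pass is not thereby shown to be equal in both. Of 24646 genes and unnamed transcripts tested, 20 passed an adjusted p of 0.05 (0.0811%), 13 higher in clone 3 (0.0527%) and 7 lower (0.0284%), by limma with Benjamini-Hochberg adjustment over all tested. In the same fit 7578 (30.7%) passed between clone 1 and the control and 7316 (29.7%) between clone 3 and the control. All control arrays lay in the first slide row and both clone 3 arrays in the second. In clone 3 against the control, clone and row therefore cannot be told apart. Of the clone 1 arrays only the first shared the row of the controls. The arrays of the 2 clones did not overlap for any of the 20, as was true of 28.8% of all tested. The median difference between the clones was 0.005 log2, and 92.6% of tested genes lay within 0.5 log2 of 0. At least 2-fold apart were 185 genes (0.751%), 73 higher (0.296%) and 112 lower (0.454%) in clone 3. Against the control 1969 (7.99%) were at least 2-fold apart in clone 1 and 2328 (9.45%) in clone 3. The share between the clones was below the 1.45% that stood at least 2-fold apart between a pair of clone 1 arrays in one slide row, and below the 1.82% between the 2 clone 3 arrays. These within-clone shares compare single arrays, whereas the clones are compared as means. Between the first clone 1 array and the mean of the clone 1 arrays in the second row the share was 0.783%, near the 0.751% between the clones. Without adjustment, 2681 genes (10.9%) had a p under 0.05, 1031 of them higher (4.18%) and 1650 lower (6.69%).

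Single arrays moved these counts. They stood at 7 higher and 4 lower without the first clone 1 array, 6 and 4 without the second and 12 and 4 without the third. Without the first clone 3 array they stood at 10 and 40, and without the second at 6 and 13. With the slide row as a block 7 were higher and 4 lower, and 10 of these 11 also passed without it. Clone 1 alone had arrays in both rows, and only its first array lay in the first row. The block therefore takes that array out of the clone difference, and it is no check apart from leaving that array out. A call lost with a row block is a call lost without that array. On the 4 arrays of the second row alone, 0 passed by limma, with 1576 at an unadjusted p under 0.05, and each of the 20 differences kept its sign there.

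**Figure D1:**
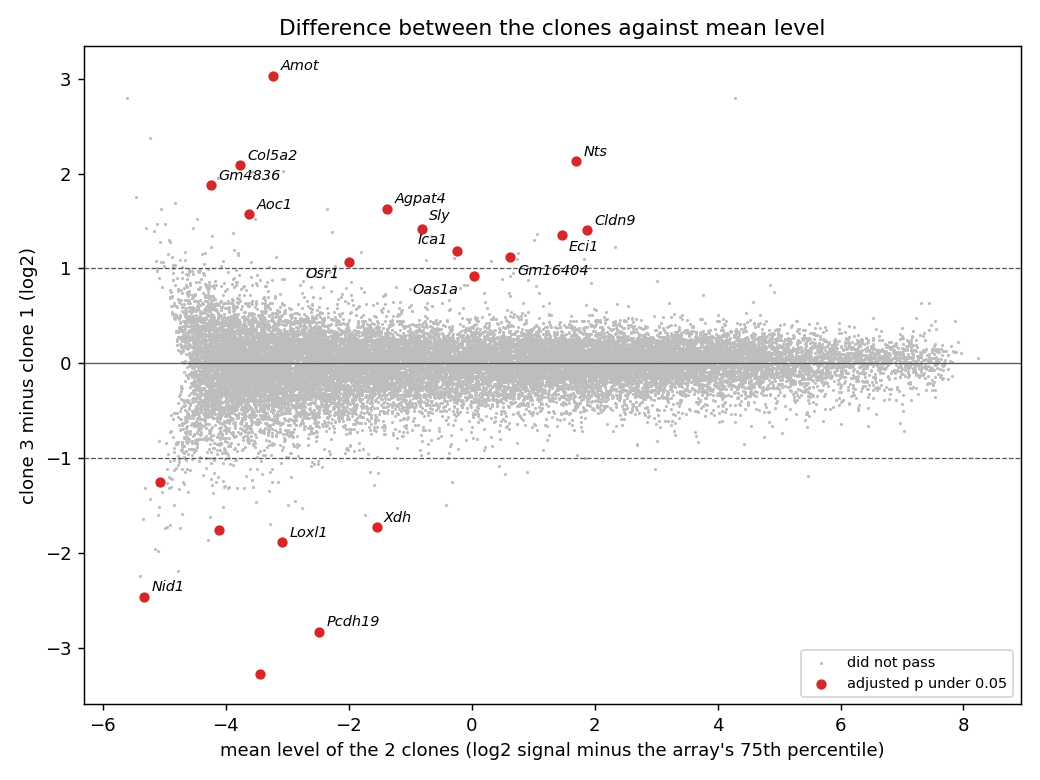
Each point is 1 of 24646 tested genes and unnamed transcripts, with the mean level of the clones on the horizontal axis and clone 3 minus clone 1 on the vertical axis, both in log2. Red points are the 20 that passed (the 3 without a label are unnamed transcripts), and dashed lines mark 2-fold; Amot at 3.03 and Pcdh19 at -2.83 lie farthest out among the named genes.

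Among genes of junctions and cell contacts, Amot and Cldn9 were higher in clone 3 and Pcdh19 was lower. Amot encodes angiomotin, a scaffold at tight junctions that binds the Hippo effector YAP and holds it in the cytoplasm. Its level was -4.88, -4.45 and -4.88 on the clone 1 arrays, -1.79 and -1.62 on the clone 3 arrays, and 0.03 to 0.21 in the controls. All 3 groups stood apart, with clone 1 lowest and above background on only 1 of 3 arrays. Amot was 3.03 log2 higher in clone 3 than in clone 1 (SE 0.16, adjusted p = 0.000558), a fitted value that rests on dim clone 1 signals, and lower than the control in clone 1 (-4.87 log2, adjusted p = 1.15e-07) and in clone 3 (-1.84 log2, adjusted p = 6.72e-05). Its other 2 probes were at background on all arrays. Cldn9, a claudin of tight junctions, lay at 1.18, 1.16 and 1.19 in clone 1, at 2.55 and 2.60 in clone 3 and at -1.08 to -0.74 in the controls. It was above the control in both clones and 1.40 log2 higher in clone 3 than in clone 1 (SE 0.13, adjusted p = 0.00726). Cldn6, the neighbour of Cldn9 on chromosome 17, differed by 0.82 log2 and did not pass (adjusted p = 0.416).

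Pcdh19 encodes an X-linked protocadherin that mediates contact between like cells. On the clone 1 arrays it stood at -1.05, -1.07 and -1.08, on the clone 3 arrays at -3.70 and -4.10, and in the controls at background (-7.29 to -6.81). It was thus detected in both clones and was 2.83 log2 lower in clone 3 than in clone 1 (SE 0.17, adjusted p = 0.000969). A second Pcdh19 probe was above background on all clone 1 arrays and at background in clone 3. Of the 21 tested genes in the list of cadherins and desmosomal genes, Pcdh19 was the one that passed, and the list's median difference was -0.10 log2.

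The promoters of Amot and Pcdh19 are shown because these 2 X-linked genes had the widest differences between the clones among named genes. They are windows of 300 bases that end shortly after the start of the gene, from RefSeq on GRCm38.p6, for Amot at chrX:145487590-145487889 and for Pcdh19 at chrX:133688944-133689243, both on the minus strand. Capitals mark the E-box CACGTG.
Amot: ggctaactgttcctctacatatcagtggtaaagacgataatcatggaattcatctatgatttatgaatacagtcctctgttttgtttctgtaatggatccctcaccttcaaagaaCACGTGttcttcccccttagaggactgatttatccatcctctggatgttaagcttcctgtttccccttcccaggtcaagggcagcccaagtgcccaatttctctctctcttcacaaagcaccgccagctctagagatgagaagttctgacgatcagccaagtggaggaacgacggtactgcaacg
Pcdh19: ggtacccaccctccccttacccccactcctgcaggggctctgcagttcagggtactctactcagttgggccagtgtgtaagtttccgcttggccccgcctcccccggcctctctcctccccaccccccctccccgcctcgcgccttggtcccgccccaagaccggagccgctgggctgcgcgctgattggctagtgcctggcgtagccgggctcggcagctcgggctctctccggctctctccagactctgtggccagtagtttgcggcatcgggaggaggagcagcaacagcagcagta
The Amot promoter held 7 CpG dinucleotides and the Pcdh19 promoter 18, where the median of 32851 promoters was 7 (quartiles 3 and 20). The E-box was found in 7.15% of these promoters. It lay at position -135 from the start of Amot, and none of the 5 motifs searched was found in this window of Pcdh19.

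Genes of the extracellular matrix moved both ways. Col5a2, which encodes a chain of the fibrillar collagen V, was higher in clone 3, whereas Nid1 and Loxl1 were lower. The level of Col5a2 was -4.78, -4.86 and -4.80 on the clone 1 arrays, above background on 1 of 3, and -2.58 and -2.87 on the clone 3 arrays, while the controls were at background (-7.29 to -6.50). The difference was 2.09 log2 (SE 0.21, adjusted p = 0.0137), and it did not pass in a fit with a row block (adjusted p = 0.0692). Col5a2 was the only 1 of 18 tested collagen genes to pass, and the list's median difference was 0.05 log2.

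Nid1 encodes nidogen-1, which links laminin to collagen IV in basement membranes. Clone 1 held it at -4.27, -4.13 and -3.91, whereas clone 3 (-7.00 and -6.13) and the controls (-7.28 to -6.76) were at background. Its level in clone 3 was therefore at least 1.62-fold lower than in clone 1, where a background array is set no lower than the dimmest probe well above background on it. The fitted difference of Nid1 was -2.46 log2 (adjusted p = 0.0141, or 0.0678 in the fit with a row block). Nid1 was tested only because it was above background in clone 1, and without a filter on dim probes it did not pass (adjusted p = 0.0914). The other Nid1 probe was at background on all arrays. Loxl1, a lysyl oxidase of elastic fibres, lay at -2.34, -2.05 and -2.03 in clone 1, at -3.99 and -4.08 in clone 3 and at -1.83 to -1.57 in the controls. Loxl1 was below the control in clone 1 (-0.44 log2, adjusted p = 0.0293) and farther below it in clone 3 (-2.33 log2), where it was 1.89 log2 lower than in clone 1 (-1.89, SE 0.14, adjusted p = 0.0023). Its relative Lox differed by 1.08 log2 the other way and did not pass (adjusted p = 0.323).

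Beside these matrix genes, the summed level of the fibroblast markers was 6.14 to 6.33 in clone 1 and 6.31 to 6.38 in clone 3, and its part in these differences was not tested. The brightest markers in that sum were Acta2 (5.21 to 5.52 in clone 1, 5.44 and 5.78 in clone 3) and Vim (4.67 to 4.83, and 4.88 and 4.40). Of the 7 tested markers 4 were higher in clone 3 and 3 lower. Pdgfra was among the lower ones (-1.80 to -1.53 in clone 1, -2.24 and -2.05 in clone 3). Of the collagens among these markers, Col1a1 was at background on all 5 knock-in arrays and Col1a2 was above it on all 5. Col3a1 was above background on 1 of 3 clone 1 arrays and 0 of 2 clone 3 arrays.

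Nts was one of 2 features whose control level lay between the clones, the other being an unnamed transcript. Nts encodes the precursor of neurotensin, a secreted peptide of gut and brain. It stood at 0.58, 0.56 and 0.78 in clone 1, at 2.75 and 2.79 in clone 3 and at 1.46, 1.45 and 1.18 in the controls. The 3 groups did not overlap. Nts was 2.13 log2 higher in clone 3 than in clone 1 (SE 0.13, adjusted p = 0.000969), below the control in clone 1 (-0.73 log2, adjusted p = 0.00213) and above it in clone 3 (1.40 log2, adjusted p = 0.000128).

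Of enzymes of lipid, amine and purine metabolism, Agpat4, Eci1 and Aoc1 were higher and Xdh was lower in clone 3. Agpat4 encodes an acyltransferase that makes phosphatidic acid. Its level was -2.06, -2.40 and -2.12 in clone 1 and -0.66 and -0.46 in clone 3, both below the 2.08 to 2.29 of the controls. The difference between the clones was 1.63 log2 (SE 0.14, adjusted p = 0.00726). A second, dimmer Agpat4 probe was above background in clone 3 and the controls and at background in clone 1. Eci1, a mitochondrial isomerase for the beta oxidation of unsaturated fatty acids, followed the same order. It stood at 0.60, 0.76 and 1.02 in clone 1, at 2.12 and 2.16 in clone 3 and at 4.37 to 4.52 in the controls. The clones differed by 1.35 log2 in Eci1 (SE 0.14, adjusted p = 0.0141), and did not pass once the row was a block (adjusted p = 0.0577). It was the 1 gene to pass of 28 tested in the list of beta oxidation and lipid uptake, whose median difference was -0.08 log2.

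Aoc1 encodes diamine oxidase, which degrades histamine and putrescine. It was at background in the controls (-7.00 to -6.79), at -4.66, -4.27 and -4.27 in clone 1 and at -2.86 and -2.80 in clone 3. The clones stood apart by 1.57 log2 (SE 0.15, adjusted p = 0.00782). The second Aoc1 probe was at background on all arrays. Xdh encodes xanthine dehydrogenase, the last enzyme of purine breakdown to uric acid. Its level fell in the order control (0.41 to 0.54), clone 1 (-0.76, -0.68 and -0.60) and clone 3 (-2.54 and -2.28). Xdh was 1.73 log2 lower in clone 3 than in clone 1 (-1.73, SE 0.12, adjusted p = 0.0021), and its second probe gave -0.89 log2.

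Ica1, Osr1 and Oas1a were also higher in clone 3. Ica1, which encodes a protein of secretory vesicles known as an islet autoantigen, had levels of -1.06, -0.86 and -0.57 in clone 1, 0.38 and 0.33 in clone 3 and 1.76 to 1.89 in the controls. Its difference was 1.18 log2 (SE 0.15, adjusted p = 0.0467), and its second probe gave 1.15 log2. Osr1, a zinc finger factor of early mesoderm, lay at -2.40, -2.72 and -2.48 in clone 1, at -1.45 and -1.46 in clone 3 and at -0.39 to -0.10 in the controls, a difference of 1.07 log2 between the clones (SE 0.14, adjusted p = 0.0478). Both genes were thus below the control in both clones and lower in clone 1.

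Oas1a encodes an oligoadenylate synthetase, an interferon-induced sensor of double-stranded RNA. Its level was -0.54, -0.36 and -0.35 in clone 1, 0.54 and 0.46 in clone 3 and 0.62 to 0.66 in the controls, so that clone 3 lay near the control. Oas1a differed by 0.92 log2 (SE 0.11, adjusted p = 0.0367) and was the only called gene under 2-fold. The median over the 32 tested interferon-stimulated genes was -0.10 log2, with 12 members above 0 and 20 below, and Oas1a was the 1 that passed. Its paralogue Oas1g, next to it on chromosome 5, differed by 0.67 log2 (adjusted p = 0.433). A row block left Ica1 (adjusted p = 0.117), Osr1 (0.107) and Oas1a (0.129) short of the threshold.

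**Figure D2:**
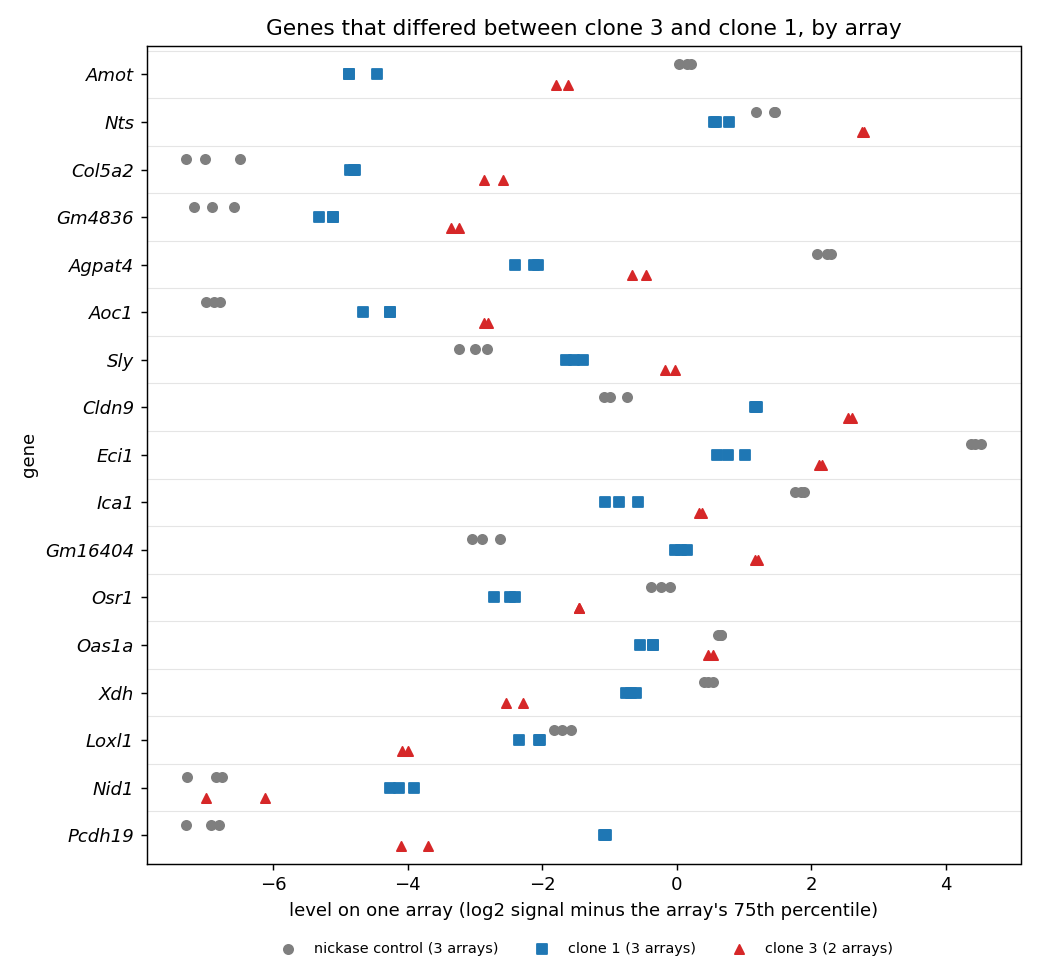
Levels of the 17 named genes that passed, on each array, in log2 signal minus the 75th percentile of the array; grey circles are the 3 controls, blue squares the 3 clone 1 arrays and red triangles the 2 clone 3 arrays. In each gene the red and blue symbols do not overlap, and for Nts the controls at 1.18 to 1.46 lie between them.

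With another background correction, normexp with an offset of 50, dim genes had smaller differences. Those of Amot (1.17 log2), Pcdh19 (-1.32), Loxl1 (-0.69), Xdh (-1.13) and Agpat4 (1.04) still passed, and those of Col5a2 (0.62), Aoc1 (0.41), Gm4836 (0.43), Osr1 (0.54) and Nid1 (-0.29) did not. Averaged over all probes of a gene, Amot differed by 1.30 log2 and passed, whereas Nid1 (-1.21), Sly (0.24) and Aoc1 (1.08) did not. Osr1, which has 1 probe, kept its difference there and missed the threshold (adjusted p = 0.0505).

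Promoters of 3 of these genes are printed as examples with a motif that a script found, shown in capitals. Aoc1 and Ica1 had alternative promoters, which are not printed. An AP-1 motif lay in only 1 of the Aoc1 windows, and the other held none of the 5 motifs. The Ica1 windows held TATA motifs, and 1 of them also an E-box. The windows, as for Amot, are chr10:102490369-102490668 on the minus strand for Nts, chr17:12119034-12119333 on the plus strand for Agpat4 and chr5:120907476-120907775 on the minus strand for Oas1a.
Nts: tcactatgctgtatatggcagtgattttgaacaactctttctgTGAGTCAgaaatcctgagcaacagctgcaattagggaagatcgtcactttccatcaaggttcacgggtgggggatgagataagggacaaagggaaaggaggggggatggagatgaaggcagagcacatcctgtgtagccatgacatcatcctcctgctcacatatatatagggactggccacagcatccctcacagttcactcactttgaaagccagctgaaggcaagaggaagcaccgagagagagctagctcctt
Agpat4: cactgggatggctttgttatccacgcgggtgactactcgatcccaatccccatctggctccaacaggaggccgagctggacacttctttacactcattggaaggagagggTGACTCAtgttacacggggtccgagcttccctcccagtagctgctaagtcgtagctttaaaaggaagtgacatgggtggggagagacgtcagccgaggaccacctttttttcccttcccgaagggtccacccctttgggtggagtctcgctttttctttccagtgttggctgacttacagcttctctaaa
Oas1a: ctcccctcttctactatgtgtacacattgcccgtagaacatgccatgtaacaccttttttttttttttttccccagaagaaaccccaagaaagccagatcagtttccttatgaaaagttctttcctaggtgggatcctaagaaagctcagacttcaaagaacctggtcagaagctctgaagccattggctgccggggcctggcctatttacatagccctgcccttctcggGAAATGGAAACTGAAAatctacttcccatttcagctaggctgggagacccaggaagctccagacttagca
In Nts the capitals are the AP-1 motif TGANTCA as TGAGTCA at position -207 from the start, and in Agpat4 the same motif as TGACTCA at -140. In Oas1a they are 2 overlapping copies of the interferon response core, GAAATGGAAA at -20 and GAAACTGAAA at -14. The AP-1 motif was found in 7.81% and the interferon core in 3.44% of 32851 RefSeq promoters of 300 bases, both strands searched. The other motifs searched were the cAMP response element TGACGTCA (1.79% of promoters) and the TATA box TATAAA (13.6%). Of the 15 called genes with a standard symbol, 9 had a promoter in the RefSeq table, and 3 of them (Eci1, Nid1 and Pcdh19) held none of the 5 motifs. A match is a description of the letters and not of binding.

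A larger share of X-linked than of autosomal genes differed at least 2-fold. Of 460 X-linked genes tested, 16 (3.48%) were at least 2-fold apart, 12 higher in clone 3 and 4 lower, against 64 of 14018 autosomal genes (0.457%), and 4 X-linked genes passed (0.87%) against 12 autosomal ones (0.0856%). Counting only genes above background on all 5 knock-in arrays, the numbers were 12 of 440 on X and 27 of 13476 on the autosomes. Over the second row of the slide alone, 15 X-linked and 78 autosomal genes were at least 2-fold apart. The median difference was -0.04 log2 over X-linked genes and 0.02 log2 over autosomal genes. Neighbouring genes are not independent, and this split by chromosome was made after values had been seen.

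**Figure D3:**
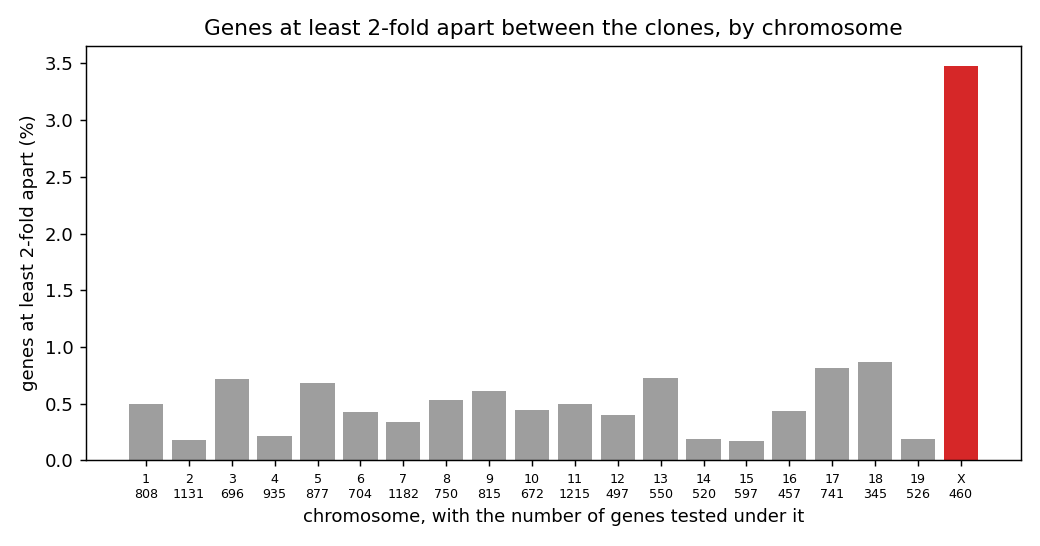
Bars give the percentage of tested genes at least 2-fold apart between the clones on each chromosome, with the number tested under each; chromosome Y, with 4 tested genes, is left out. The X bar stands at 3.48%, and the highest autosomal bar is chromosome 18 at 0.87%.

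The X-linked genes that differed lay close together. Of the 16, 13 fell into 4 runs in which each lay within 5 tested genes of the next. One run held Gm5168, Gm2030, Gm4836 and Gm10487, beside Slx, a germ cell gene of the X chromosome. A second held Gm14625, Gm16404 and 3830403N18Rik, near Xlr of the same germ cell family. The third held Amot, Luzp4, Gm15085 and Gm10439, and all 11 genes of these 3 runs were higher in clone 3. The fourth held Pcdh19 and 4932411N23Rik, both lower. These genes were chosen after their values were seen, except Amot and Pcdh19.

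Leaving Amot aside, 6 of the other 10 higher genes of these runs were at background on all 3 control arrays. The share of all tested genes at background there was not computed. Of the 10, 9 were above background on all 5 knock-in arrays, as were 23068 of all 24646 tested. The differences of the 10 between the clones ran from 1.09 to 1.88 log2. Luzp4 was at background in the controls (-7.33 to -6.26), at -1.46, -1.32 and -1.21 in clone 1 and at 0.13 and -0.11 in clone 3. The clones did not overlap in Luzp4, but its difference of 1.34 log2 did not pass (adjusted p = 0.156). Gm10439 likewise lay at 0.42, 0.32 and 0.43 in clone 1 and at 1.63 and 1.88 in clone 3 (difference 1.36 log2, adjusted p = 0.128), with the controls at background. Amot went the other way against the control, highest there, although it lies beside them.

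Gm16404 and Gm4836 passed as well. Gm16404 stood at -0.03, 0.06 and 0.15 in clone 1, at 1.21 and 1.16 in clone 3 and at -3.04 to -2.63 in the controls, a difference of 1.12 log2 between the clones (SE 0.14, adjusted p = 0.0424). Gm4836 was at background in the controls and in clone 1 (-5.11, -5.11 and -5.32) and above it in clone 3 (-3.36 and -3.24), at least 2.85-fold higher (adjusted p = 0.00772). Gm4836 also passed in the fit with a row block, and Gm16404 did not (adjusted p = 0.161). Gm4836 was tested only because it was above background in clone 3. Without a filter on dim probes neither passed (adjusted p = 0.0604 for Gm4836 and 0.26 for Gm16404). The Y-linked Sly, a multicopy spermatid gene related to Slx, had levels of -1.64, -1.53 and -1.40 in clone 1, -0.18 and -0.03 in clone 3 and -3.24 to -2.82 in the controls. It differed by 1.42 log2 (SE 0.15, adjusted p = 0.0141, or 0.0754 with a row block), while its other 7 probes were at background in both clones. Genes of such families have near-identical copies, so a probe may read several of them, and the gene each value is given to is uncertain. Only 4 Y-linked genes were tested. The list of Y-linked and X-inactivation genes had 8 members on the array, and Xist was the 1 tested. The others were not well above background on all arrays of either clone.

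Xist, the RNA that coats an inactive X chromosome, was at background in the controls (-7.33 to -6.24) and well above it in both clones. It stood at -1.72, -1.88 and -2.06 in clone 1 and at -1.97 and -2.78 in clone 3. The clones overlapped, and the difference of -0.49 log2 did not pass (adjusted p = 0.608). Armcx2, an X-linked gene outside the runs, lay at -4.44, -4.67 and -4.58 in clone 1 and at -3.19 on both clone 3 arrays, with a difference of 1.37 log2 (adjusted p = 0.071). DXBay18 was lower in clone 3, by 1.08 log2 (-1.08, adjusted p = 0.0652).

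The 7 lower features include 3 transcripts without a gene symbol, each at background on both clone 3 arrays. These 3 were tested only because they were above background in clone 1, so their adjusted p rests on clone 3 values at background. Without a filter on dim probes none of the 3 passed (adjusted p = 0.0604 for ENSMUST00000147971, 0.148 for ENSMUST00000137377 and 0.168 for ENSMUST00000143745). ENSMUST00000147971 lay at -1.94, -1.60 and -1.90 in clone 1 and was at background in the controls as in clone 3, at least 7.91-fold lower in clone 3 than in clone 1 (adjusted p = 0.00726). ENSMUST00000137377 was at least 2.89-fold lower and ENSMUST00000143745 at least 1.28-fold lower. Neither passed with a row block (adjusted p = 0.107 and 0.0754) or with normexp correction (adjusted p = 0.782 and 0.943). None of the other tested genes among the 5 on each side of a called gene passed, and the median difference over the neighbours was between -0.07 and 0.14 log2 for 15 of 17 named genes. It was 0.47 log2 beside Gm4836 and 0.57 log2 over the 3 tested neighbours of Sly.

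Set against the control, the 20 features did not share one order. The control lay outside the clones on the side of clone 3 for 10, on the side of clone 1 for 8 and between them for 2. In the first group, with both clones below the control and clone 1 farther from it, were Amot, Agpat4, Eci1, Ica1 and Osr1. Both clones were above the control, with clone 3 farther, for Cldn9, Aoc1, Col5a2, Gm16404 and Sly. Gm4836 had the same order of mean values, but the control and clone 1 were both at background. For Nid1, ENSMUST00000147971 and ENSMUST00000143745 the control and clone 3 were both at background. The positions of these features thus rest on the order of background values. Each comparison with the control uses the same 3 arrays, which lay in the other slide row from clone 3, so the positions of the 20 are a description.

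Of 58 gene lists of pathways and cell types, 8 held 1 called gene each and 50 held none, with 1235 distinct members tested and 8 called, where 0.0811% of all tested passed. These lists were chosen with results known, so nothing is read from that count. The lists of DNA replication, mitosis and ERK feedback genes had the highest medians. All but 1 of 40 replication genes were higher in clone 3, with a median of 0.24 log2, and 12 had an unadjusted p under 0.05, all higher, where 4.18% of all genes did. None of the 40 passed after adjustment. Cdc6, which loads the replicative helicase, differed by 0.83 log2 (adjusted p = 0.237), Mcm7, a subunit of that helicase, by 0.65 log2 (adjusted p = 0.282) and Pole, the catalytic subunit of a replicative polymerase, by 0.49 log2 (adjusted p = 0.211). Relative to the control mean, the median over the list was -0.65, -0.66 and -0.51 on the clone 1 arrays and -0.37 and -0.36 on the clone 3 arrays. Both clones thus lay below the control, and the clone 3 arrays lay nearer to it on each array.

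Mitotic genes had the same order. Of 35, 31 were higher in clone 3, with a median of 0.22 log2 and 8 at an unadjusted p under 0.05, all higher, beside 4.18% of all genes, and 0 passed after adjustment. Cdc25b, a phosphatase that activates the mitotic kinase, stood at -0.25, -0.14 and -0.11 in clone 1 and at 0.40 and 0.74 in clone 3, with a difference of 0.74 log2 (adjusted p = 0.191). Aurkb, a kinase of chromosome segregation, differed by 0.56 log2 (adjusted p = 0.301). The array medians relative to the control were -0.35, -0.35 and -0.25 in clone 1 and -0.16 and -0.07 in clone 3. Array medians over all tested genes lay between -0.08 and 0.03 on these 5 arrays.

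Feedback genes of the ERK pathway were the third list in this order. Of 18 tested, 15 were higher in clone 3, with a median of 0.22 log2 and 5 at an unadjusted p under 0.05, all higher, beside 4.18% of all genes. Fosl1, an AP-1 subunit downstream of ERK, lay at 1.67, 1.82 and 1.65 in clone 1, at 2.32 and 2.24 in clone 3 and at 2.63 to 2.76 in the controls. Fosl1 differed by 0.57 log2 without passing (adjusted p = 0.149). Etv4, a transcription factor induced by ERK, differed by 0.41 log2 (adjusted p = 0.313), and Dusp6, the phosphatase that inactivates ERK, by 0.33 log2 (adjusted p = 0.35). None of the 18 passed. One clone 3 array had a list median of -0.15 against the control and the other -0.35, so this list differed between the 2 arrays of the clone by nearly as much as between the clones.

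Lysosomal and cholesterol genes lay lower in clone 3. Of 35 lysosomal genes 28 were lower, with a median of -0.21 log2, and 7 had an unadjusted p under 0.05, all lower, where 6.69% of all genes did. Ctsa, a protective carboxypeptidase of lysosomes, stood at 6.34, 6.27 and 6.44 in clone 1, at 5.85 and 6.01 in clone 3 and at 4.63 to 4.85 in the controls (difference -0.42 log2, adjusted p = 0.31). Hexa, a hexosaminidase for gangliosides, differed by -0.51 log2 (adjusted p = 0.347). Of 24 genes of cholesterol synthesis and uptake 20 were lower, with a median of -0.16 log2 and 6 at an unadjusted p under 0.05, all lower. Insig1, which retains the sterol sensor in the endoplasmic reticulum, differed by -0.55 log2 (adjusted p = 0.228) and Sqle, the squalene epoxidase, by -0.52 log2 (adjusted p = 0.423). No member of either list passed, and both lists lay above the control in both clones, less so in clone 3.

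**Figure D4:**
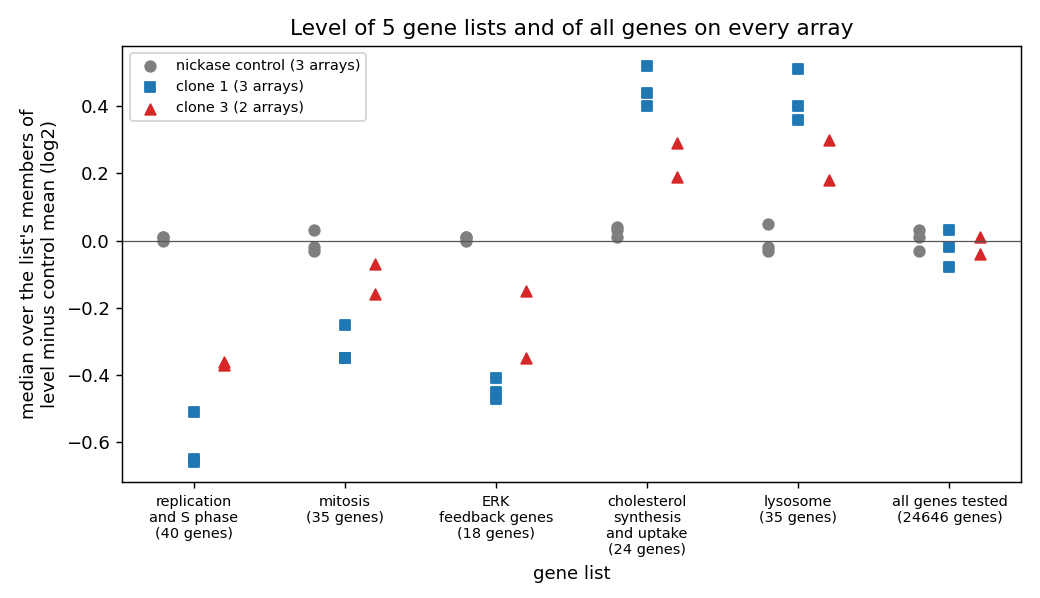
Each symbol is the median, over the members of a list, of the level on 1 array minus the mean of the controls, in log2. Replication genes sit at -0.66 to -0.51 in clone 1 and at -0.37 and -0.36 in clone 3, and lysosomal genes at 0.36 to 0.51 in clone 1 and at 0.18 and 0.30 in clone 3.

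The other lists had medians between -0.17 and 0.18 log2, apart from the list of Y-linked and X-inactivation genes, which had Xist as its 1 tested member. The median over all tested genes was 0.01 log2 with quartiles of -0.16 and 0.15. Oxidative phosphorylation (41 tested, -0.02 log2), glycolysis (23 tested, 0.03 log2), cytosolic ribosomal proteins (41 tested, 0.03 log2), p53 targets (29 tested, 0.01 log2) and NRF2 and glutathione genes (35 tested, 0.00 log2) had medians within 0.05 log2 of 0. Keratins (16 tested, 13 higher, 0.18 log2) and genes of serine, one-carbon and glutamine metabolism (27 tested, 21 higher, 0.14 log2) had medians above 0. Cytokines and their receptors (24 tested, 18 lower, -0.15 log2) had a median below 0, and 18 of 22 metalloproteases and their inhibitors were lower (-0.08 log2). Of all 24646 tested, 12558 were higher and 12088 lower. Array medians against the control overlapped between the clones for keratins (0.07 to 0.29 in clone 1, 0.17 and 0.47 in clone 3). They also overlapped for the serine list (-0.25 to -0.18, and -0.19 and -0.10). Those of cytokines and receptors did not (0.03 to 0.07, and -0.12 and -0.20). Within the second slide row the medians were 0.12 log2 for keratins and 0.06 log2 for the serine list. No member of these lists passed. The interval of such a median was not computed, since genes of a list are not replicates. Notch (17 tested, -0.16 log2), Wnt (23 tested, -0.17 log2) and chemokine genes (11 tested, -0.16 log2) had medians below 0, with none past the threshold. Relative to the control, the array medians of Wnt genes overlapped between clone 1 (0.12 to 0.35) and clone 3 (0.17 and 0.32). Those of chemokines overlapped too (-0.25 to 0.04 in clone 1, 0.08 and -0.06 in clone 3). Those of Notch genes did not (-0.29 to -0.17 in clone 1, -0.32 and -0.52 in clone 3). Cxcl5, a chemokine for neutrophils, stood at 2.32, 2.28 and 2.43 in clone 1 and at 1.66 and 1.02 in clone 3, against 6.43 to 6.72 in the controls. The clone arrays did not overlap for Cxcl5, but its difference of -1.0 log2 did not pass (adjusted p = 0.13).

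The list of Hippo pathway targets was mixed. Besides Amot, the 1 member that passed, 6 of its 20 members had an unadjusted p under 0.05, all lower in clone 3, beside 6.69% of all genes. Ccn1, a matricellular target of YAP, differed by -0.71 log2 (adjusted p = 0.252), its relative Ccn2 by -0.47 log2 (adjusted p = 0.318) and the receptor kinase Axl by -0.63 log2 (adjusted p = 0.374). The median over the 20 was 0.01 log2. The 2 clone 3 arrays differed from each other in Ccn1, at 3.27 and 2.60, by about as much as the clones did.

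**Figure D5:**
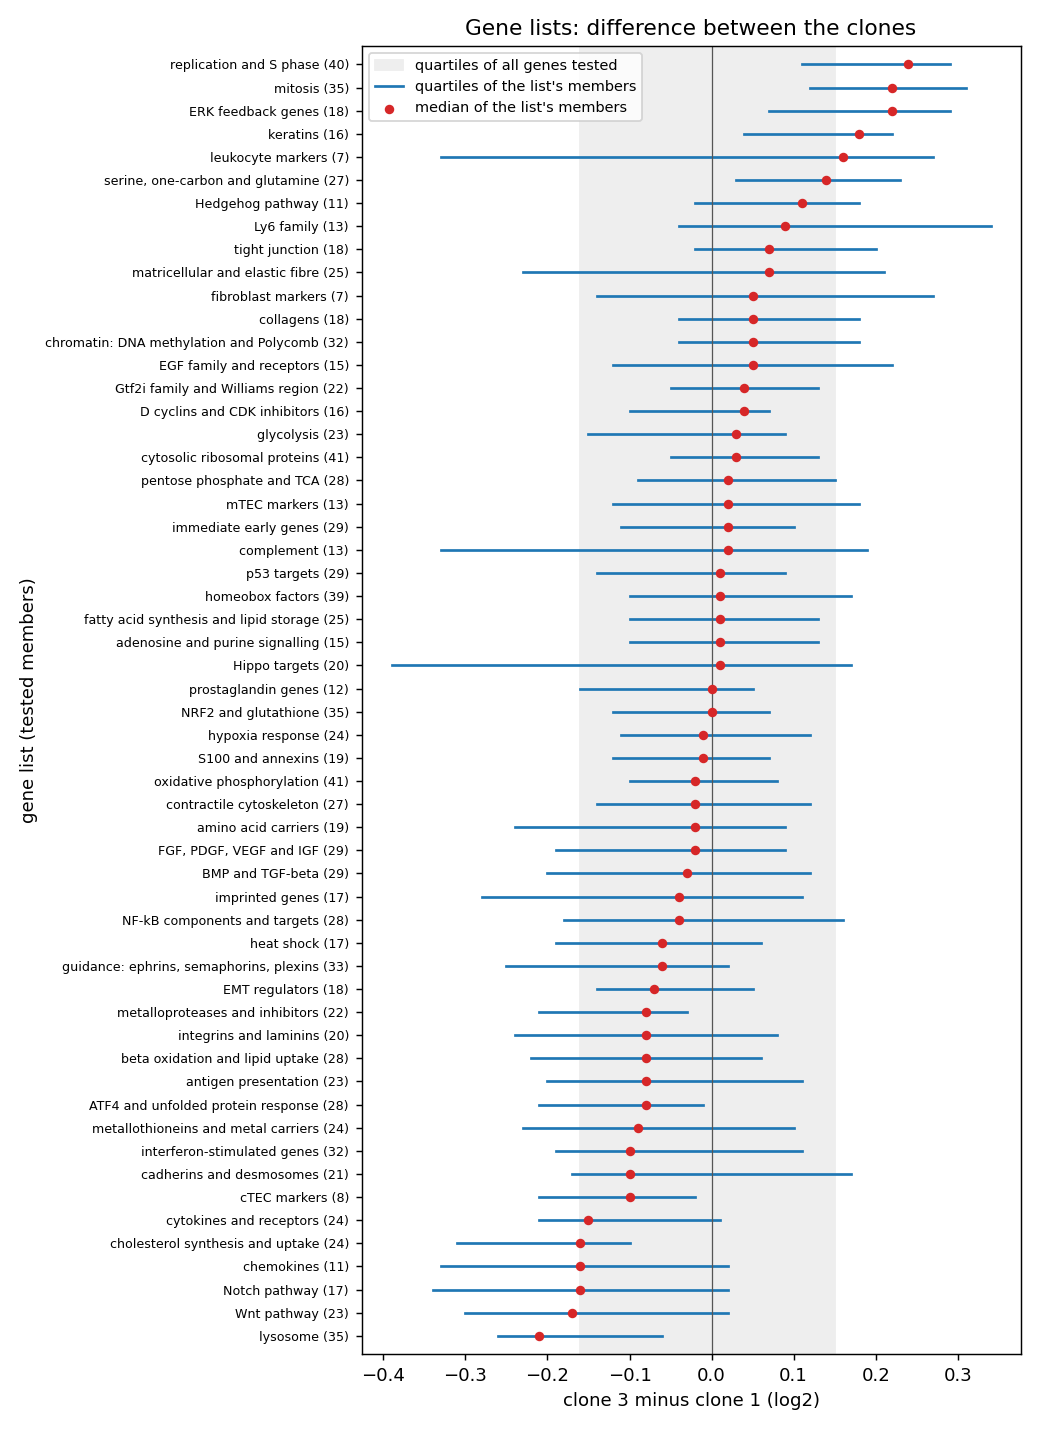
For each gene list with at least 5 tested members, the red point is the median difference of clone 3 minus clone 1 in log2, the blue bar spans the quartiles of its members and the grey band those of all genes tested (-0.16 to 0.15). The replication list at 0.24 is highest and the lysosome list at -0.21 lowest.

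Of genes above background on all 5 knock-in arrays and with no overlap between the clones, 14 with a standard symbol were at least 2-fold different and did not pass. Bst1, which encodes an ADP-ribosyl cyclase of stromal and blood cells, came nearest. It lay at 0.90, 1.12 and 1.39 in clone 1, at -0.08 and 0.01 in clone 3 and at 1.28 to 1.49 in the controls (difference -1.17 log2, SE 0.16, adjusted p = 0.0513). Id2, an inhibitor of helix-loop-helix factors, stood at -4.37, -3.95 and -4.06 in clone 1 and at -3.34 and -2.77 in clone 3 (difference 1.07 log2, adjusted p = 0.11). Foxj1, the master regulator of motile cilia, was at 1.5, 1.44 and 1.48 in clone 1 and at 0.57 and 0.08 in clone 3 (difference -1.15 log2, adjusted p = 0.154). For Id2 and Foxj1 the spread between the clone 3 arrays was wider than that between the clone 1 arrays. Gli2, a transcription factor of Hedgehog signalling that was above background on 1 of 3 clone 1 arrays and both clone 3 arrays, differed by 1.16 log2 (adjusted p = 0.0983).

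The edited gene itself did not pass between the clones. Gtf2i lay at 3.97, 3.88 and 4.01 in clone 1, at 3.80 and 3.85 in clone 3 and at 4.37 to 4.46 in the controls. Its difference of -0.13 log2 (SE 0.11, adjusted p = 0.677) was -0.12 log2 within the second slide row. Its relatives Gtf2ird1 (0.11 log2, SE 0.12, adjusted p = 0.766) and Gtf2ird2 (0.08 log2, SE 0.12, adjusted p = 0.819) had overlapping ranges. A probe does not read a point mutation, so these levels check nothing about the edit.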

How the data were processed

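RNA of 8 arrays of TEC71 cells was measured, 3 of the nickase control, 3 of clone 1 and 2 of clone 3, grouped by sample title. The authors deposited the processed signal of each spot, a linear fluorescence intensity from which background was removed. Per the submitters' processing notes the software was Agilent Feature Extraction in version 11.5.11. Spots that the files mark as outliers (114 to 242 per array) and 3671 control spots were left out, spots of a probe were averaged, and the 75th percentile of each array was subtracted on the log2 scale. Probes were named through their accessions and RefSeq GRCm38.p6 names, which gave 32994 probes a symbol and left 23611 unnamed. The file headers name an older build, so RefSeq positions were used only for chromosomes, for the order of genes and for the printed promoters.

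The brightest probe stood for a gene. A gene was tested where it was well above background on all arrays of clone 1 or of clone 3 (24646 of 45616). Tests used limma 3.58.1 in R 4.3.3, in one fit of the 3 groups (two-sided, Benjamini-Hochberg over all tested, residual degrees of freedom 5, prior 3.59), so that the spread of the 2 clone 3 arrays is pooled with the others. The script was tested on simulated data. Levels not above background were set to the dimmest probe above background on the array for lower limits of a fold. The text names Gtf2i and its 2 relatives, up to 12 called genes each way and up to 4 called members of a list, and other genes, chosen after their values were seen. These others are the unadjusted examples of lists and the genes at least 2-fold apart that did not pass. The members, the gene lists and the rule were chosen with earlier results of these data known. Alternatives were normexp correction of the median signal (the files used hold no mean signal) with offset 50, median and quantile scaling, other filters, the mean of probes, the slide row as a block, other variance models, single rows and each array left out. The number of arrays limits the precision.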

Additional observations from a re-analysis of the deposited data

Results flagged for a closer look

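The 20 features that passed between the clones are those whose effects against the shared control differ by the test of the difference. The control cancels in that difference, so it equals clone 3 minus clone 1 and is the same limma test, no further result. The difference was 3.03 log2 for Amot (effects of -4.87 in clone 1 and -1.84 in clone 3), 2.13 for Nts (-0.73 and 1.40), 2.09 for Col5a2 (2.12 and 4.21), 1.88 for Gm4836 (1.71 and 3.59) and 1.63 for Agpat4 (-4.40 and -2.77). It was 1.57 for Aoc1, 1.42 for Sly, 1.40 for Cldn9, 1.35 for Eci1, 1.18 for Ica1, 1.12 for Gm16404, 1.07 for Osr1 and 0.92 for Oas1a. On the lower side it was -3.28 for ENSMUST00000147971, -2.83 for Pcdh19 (effects of 5.94 and 3.11), -2.46 for Nid1, -1.89 for Loxl1, -1.76 for ENSMUST00000137377, -1.73 for Xdh (-1.15 and -2.88) and -1.25 for ENSMUST00000143745. Effects against a group at background are fitted values and no fold.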

How the results depend on the processing

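No called gene changed sign under any alternative run. The counts of 13 higher and 7 lower became 26 and 17 with normexp correction, 21 and 14 with quantile scaling, 7 and 4 with the slide row as a block, 26 and 36 with a variance trend and robust estimation, and 6 and 4 at an adjusted p of 0.01. Without a filter on dim probes 2 were higher and 5 lower, with 45616 tested, and 15 of the 20 features lost their call. On the 4 arrays of the second slide row 0 and 0 passed by limma, with 1576 at an unadjusted p under 0.05 and fewer arrays. Leaving out 1 array gave 6 to 12 higher and 4 to 40 lower. The row block amounts to leaving out the first clone 1 array. The other alternatives stayed within 1.5 times of both counts. Amot, Nts, Pcdh19, Loxl1 and Xdh kept their call in all alternatives in which they were tested except the second row alone. Osr1 passed in 4 of 20, Oas1a and Ica1 in 7 of 20. The causes of the other changes were not tested. The medians of the replication, mitosis, ERK feedback, lysosome and cholesterol lists kept their sign under normexp, median and quantile scaling and the row block. No paired analysis was possible because the labels give slide positions and no replicate numbers shared between clones. Signal over background limits the genes near the dimmest levels, where folds are lower limits.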

Other observations

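Pdap1, which encodes a phosphoprotein bound to platelet-derived growth factor, read -2.59 on the first clone 1 array and 5.58 to 5.79 on the other 7 arrays. The clone difference of 2.80 log2 did not pass (adjusted p = 0.643), and within the second slide row it was 0.06 log2. Lypd10 was the gene with the widest difference among those above background on all 5 knock-in arrays, with arrays apart and a standard symbol, that did not pass. It lay at -3.84, -4.11 and -4.32 in clone 1, at -2.11 and -2.01 in clone 3 and at -6.53 to -4.95 in the controls (2.03 log2, adjusted p = 0.145). Growth factor genes of both clones included Igf2, at background in the controls, at -2.69, -2.61 and -2.79 in clone 1 and at -1.92 and -1.66 in clone 3 (0.91 log2, adjusted p = 0.145).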
